A study of Mus musculus with 15 samples.

Results

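Spread between independent cultures was measured in primary mouse embryonic fibroblasts and in the culture-adapted lines that were grown from them. For each transcription unit the standard deviation (SD) of log2(FPKM + 1) was taken within each group of 3 libraries and averaged over the 2 genotypes, so that a value of 1 corresponds to a typical distance of 1 log2 unit from the group mean. The groups used 12 of the 15 libraries of the series, and 11854 of the 65522 units in the table had a mean of at least 5 FPKM over the 12 and were described. Of these units, 11314 (95.4%) share their coordinates with another unit. Coordinates printed below are those of the unit and, unless called its own, can be shared. No measured outcome entered the choice of libraries. FPKM scales the sequenced fragments of a transcript by its length and by the number of fragments mapped in the library.

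All cultures came from female C57BL/6 embryos, each culture from 1 embryo. RNA was taken at about the same degree of confluence, and poly(A)-enriched libraries were sequenced. Wild-type (WT) primary cells, collected at early passage, came from 3 embryos (named E13.8, E14.4 and E13.1), and the WT adapted lines were grown on from the same 3 populations. CIZ1 null primary cells, in which a gene trap interrupts the gene for the nuclear matrix protein CIZ1 on both alleles, came from E13.15, E13.17 and E14.2, again with an adapted line from each. The null population E13.17 and its adapted line also carried an inducible GFP-CIZ1 transgene and were not induced here, and a source label of the primary E13.17 library names another sample. The adapted lines are bulk populations and the labels give neither their passage nor a batch. Embryo names come from matching the values to per-line tables of the study and not from the sample labels.

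The question addressed was which gene families come to differ between lines once fibroblasts have adapted to growth in a dish and which stay at a fixed level. Explanted embryonic fibroblasts divide for a limited time and then slow down under the products of the Cdkn2a locus, p16 and p19ARF, and of the p53 pathway, and lines that go on growing have usually lost part of that control. Fibroblasts also keep a record of their place in the body in the Hox genes and other positional transcription factors, which pattern the trunk and limbs of the embryo. Genes for ribosomes, respiration and splicing are needed in every cell.

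The labelled genotypes were checked first. Ciz1 was at 19, 21.4 and 25.0 FPKM in the WT primary cultures and at 18.7, 19.3 and 24.1 FPKM in the WT adapted lines, against 0.171 to 0.279 FPKM in the null primary cultures and 0.0546 to 0.724 FPKM in the null adapted lines. The summed level of 10 fibroblast markers was 11815 to 13617 FPKM in the 6 primary libraries and 2451 to 7725 FPKM in the 6 adapted ones, and 10 of the 10 had a mean of at least 5 FPKM. Summed markers of other cell types were low in both states. They reached 15.2 FPKM for muscle, where Myod1 and Myf5 were listed at 0, 2.70 FPKM for endothelium, 23.3 FPKM for neural cells, 21.8 FPKM for cartilage and bone, 11.3 FPKM for epithelium and 91.4 FPKM for macrophages and blood, where Lyz2 gave 71.9 FPKM of the highest sum and Ptprc stayed below 0.79 FPKM. The macrophage sum was 8.80 to 91.4 FPKM in primary and 2.15 to 15.1 FPKM in adapted cells, and its part in the results below was not tested. In bulk RNA, fewer cells of a type and less RNA per cell cannot be told apart.

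Adapted lines lay farther from their group mean than primary cultures. The median deviation of a library over the 11854 units was 0.116, 0.133 and 0.172 on the log2 scale in the WT primary cultures and 0.137, 0.168 and 0.211 in the null primary cultures. It was 0.257, 0.313 and 0.318 in the WT adapted lines and 0.276, 0.305 and 0.312 in the null adapted lines. The states did not overlap. The means were 0.156 ± 0.0343 in primary and 0.297 ± 0.0246 in adapted libraries (SD, n = 6 each), a difference of 0.140 with a two-sided exact permutation p of 0.00216, which is the smallest this design allows. Each adapted line shares its embryo with a primary culture, and the adapted library was the farther one in 6 of 6 such pairs (exact permutation within pairs p = 0.0312, the smallest 6 pairs allow). Within a genotype the difference was 0.155 for WT and 0.125 for null, and with 3 libraries against 3 the exact permutation p of 0.1 is again the smallest possible. The genotypes overlapped in both states, null minus WT being 0.00171 in adapted lines (exact permutation p = 1) and 0.0315 in primary cultures (exact permutation p = 0.4). Deviations in a group of 3 share 1 group mean, so the library values are not wholly independent. The permutation p-values, free and within pairs, do not allow for that.

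**Figure D1:**
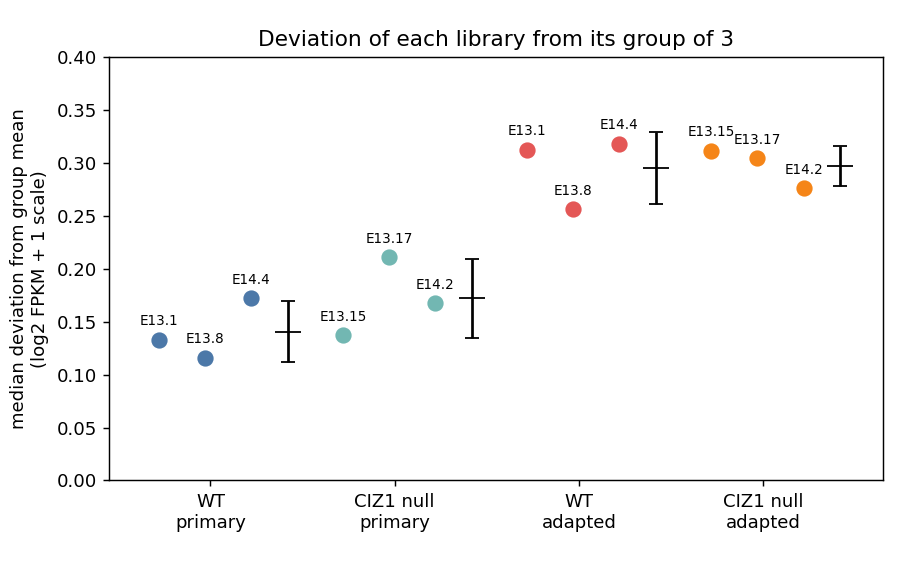
Median absolute deviation of each library from its group mean over 11854 transcription units (y axis, log2 units), for the 4 groups on the x axis. Each point is 1 library named by its embryo and the bars give mean ± SD of 3 libraries; the 6 adapted libraries lie between 0.257 and 0.318, above the 6 primary libraries at 0.116 to 0.211.

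The median SD of a unit was 0.169 in WT primary and 0.207 in null primary cultures, and it was 0.359 and 0.358 in the adapted groups. Averaged over genotypes it was 0.196 in primary and 0.371 in adapted cells, and the adapted value was the higher one in 85.5% of the units. Units with an SD of at least 1 numbered 144 (1.21%) in primary and 1157 (9.76%) in adapted cells. Where 1 unit stood for each gene, the one of highest mean FPKM, 8779 units remained, and 785 of them (8.94%) reached an SD of 1 in adapted lines against 65 (0.74%) in primary cultures. The adapted SD lay below the primary SD for 1258 genes.

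Sequencing depth was lower in the adapted libraries. The FPKM values hold no counts, and the depth relative to the WT primary E14.4 library, read from the steps between low values, was 1 to 1.63 in primary libraries (median 1.38) and 0.541 to 1.19 in adapted ones (median 0.804). Depth and state went largely together, and the part of depth in the spread was not tested. Among units with a mean of at least 100 FPKM the median SD was 0.169 in primary and 0.371 in adapted cells, against 0.218 and 0.373 for those at 5 to 10 FPKM. Between 92 and 201 of the described units were listed at exactly 0 in an adapted library and 44 to 67 in a primary one, and a 0 in such a table can be a failed estimate.

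Each pair of cultures of a group shows the same contrast. Over the 8779 genes the log2 levels of 2 primary cultures of a genotype correlated at 0.946 to 0.979, and those of 2 adapted lines at 0.778 to 0.861. The median absolute difference between 2 cultures was 0.145 to 0.291 in primary and 0.383 to 0.462 in adapted pairs. The genes that spread most were only partly the same in the 2 genotypes. The rank correlation of the adapted SDs of WT and null lines was 0.334 over 8779 genes, as a description, and of the 877 genes with the highest SD in each adapted group 388 were shared, which is 44.2% of each list. Primary and adapted SDs correlated at 0.397.

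The unit-by-unit comparison used limma on absolute deviations from the group mean. It called 2565 of 11854 units (21.6%) more spread in adapted lines and 96 (0.81%) less spread at an adjusted p below 0.05. These p-values are too small, since the 3 deviations of a group hold only 2 independent values, and the count depends on the test. A moderated F ratio of the variances called 232 units (1.96%) more spread and 42 (0.354%) less spread, each of them among the limma calls. With deviations taken from the group median, limma called 0 units in either direction, with 265 at an unadjusted p below 0.05. In a group of 3, 1 deviation from the median is always exactly 0, which by construction raises the residual spread. That setting therefore has little power to call units. The limma count of more spread units was 1620 to 1680 without the WT primary library E13.1 or E13.8 or the null primary library E13.15, and 3934 without the WT adapted line E13.8. For the lists below the limma count of more spread genes is given first and the F ratio count with it. With 1 unit for each gene, limma called 21.1% of all genes more spread and the F ratio 1.86%. Each list count is to be read beside these shares. Of the 96 units called less spread, 46 were listed at 0 in all 6 adapted libraries. A mean of at least 5 FPKM rested on the highest library alone for 42 of these 96 units, for 125 of the 2565 and for 552 of all 11854.

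**Figure D2:**
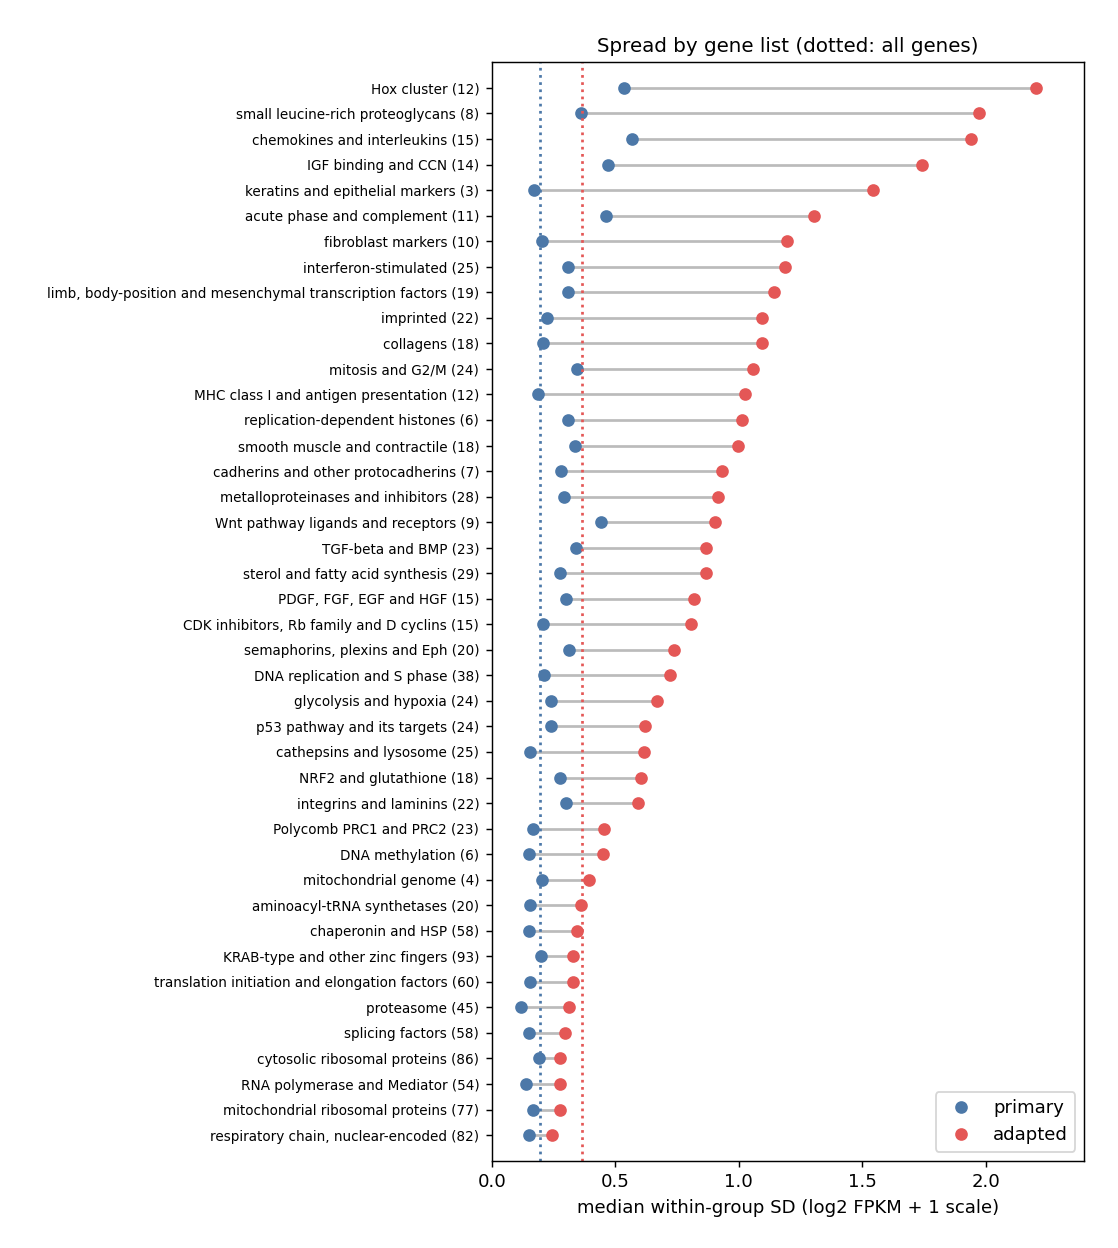
Median SD of log2(FPKM + 1) between cultures for the gene lists with at least 3 described units (y axis, sorted), in primary and in adapted groups (x axis, log2 units), with the median of all genes as a reference line. The adapted point lies to the right of the primary point in 42 of 42 lists, and the adapted medians run from 0.243 for the respiratory chain to 2.2 for the Hox clusters.

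Gene families differed widely in how far apart the adapted lines were. Of 42 lists with at least 3 described units, 32 had a median adapted SD above that of all genes (0.364, against 0.195 in primary cells) and 10 did not, while the adapted median was above the primary one in 42 of 42. The lists keep much of their order between genotypes, with a rank correlation of 0.716 between the list medians of WT and null adapted lines, and 28 lists were above the median of all genes in both. They also keep it between states, at 0.745 between primary and adapted medians. These correlations are over lists that share libraries and, in places, genes, and describe these data only.

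The tightest families were mostly those of the basic machinery of the cell. Median SD rose from 0.150 in primary to 0.243 in adapted cells for 82 nuclear-encoded genes of the respiratory chain, from 0.167 to 0.274 for 77 mitochondrial ribosomal proteins, from 0.136 to 0.275 for 54 subunits of RNA polymerases and Mediator, and from 0.191 to 0.275 for 86 cytosolic ribosomal proteins. Splicing factors (58 genes, 0.294), proteasome subunits (45, 0.311), translation factors (60, 0.327), zinc finger proteins (93, 0.329), chaperones (58, 0.344) and aminoacyl-tRNA synthetases (20, 0.361) followed. In WT adapted lines alone, proteasome subunits (0.391), chaperones (0.376) and synthetases (0.476) were above the median of all genes (0.354). In null adapted lines they were at 0.231, 0.283 and 0.254, against 0.352 for all genes. The other lists named here were below the median of all genes in both genotypes. No member of the respiratory chain list reached an SD of 1 in adapted lines, and 8 of its 82 genes were called more spread by limma (F ratio 0). Cytosolic ribosomal proteins had 1 called gene of 86 by either test, against 21.1% of all genes called more spread and 0.467% called less spread. Limma called 14 of 45 proteasome subunits, 16 of 60 translation factors and 6 of 20 synthetases more spread, above that share (F ratio 0 for each). Below it were 12 of 58 splicing factors (F ratio 1), 12 of 58 chaperones (0) and 15 of 93 zinc finger proteins (0). So were 8 of 54 polymerase and Mediator subunits (0) and 8 of 77 mitochondrial ribosomal proteins (1). Limma called 2 splicing factors, 1 polymerase or Mediator subunit, 1 mitochondrial ribosomal protein and 1 zinc finger protein less spread. It called no gene of the other lists of this paragraph less spread, and the F ratio called none in any of them.

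Edf1, which encodes a transcriptional coactivator, had the smallest adapted SD among units of at least 50 FPKM with their own coordinates and no 0 (chr2:25557847-25562082, GRCm38). It was at 204 to 251 FPKM in the primary cultures, at 142, 144 and 144 FPKM in the WT adapted lines and at 127, 128 and 131 FPKM in the null adapted lines. The level was thus lower in every adapted line than in any primary culture, and within a genotype the lines were nearly equal. Its SD was 0.10 in primary and 0.02 in adapted cells. Edf1 is shown for its small adapted SD, so no test is given for it, and over the 423 units with 1 symbol, their own coordinates and no 0 limma called 0 units less spread.

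The same selection held Sod1, the cytosolic superoxide dismutase, at 334 to 504 FPKM in primary cultures and 244 to 319 FPKM in adapted lines, with an SD of 0.21 and 0.07. It also held Rps6 (SD 0.19 and 0.09) and Rpl11 (0.19 and 0.10) of the cytosolic ribosome, Cox6a1 (0.08 and 0.10) and Ndufb7 (0.25 and 0.10) of the respiratory chain, and Psmc4 (0.08 and 0.14) of the proteasome. Sdhb, a subunit of succinate dehydrogenase, had an SD of 0.07 in primary and 0.08 in adapted cells, and Med19 of Mediator had 0.05 and 0.06.

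A few members of tight families were exceptions. Rps4l, a paralog of a ribosomal protein gene that may share reads with its relatives, was at 33.6 to 46.7 FPKM in primary cultures. In adapted lines it was at 10.9, 6.92 and 0 FPKM in WT E13.1, E13.8 and E14.4 and at 31.2, 0 and 0 FPKM in null E13.15, E13.17 and E14.2, so that 3 of 6 lines were listed at 0. Mrpl44, of the mitochondrial ribosome, was at 50.2 to 93.5 FPKM in primary cultures and at 10.8, 11.8 and 135 FPKM in the WT lines and 14, 65 and 36.6 FPKM in the null lines, in the same order of embryos (SD 0.21 and 1.54, limma adjusted p = 0.0132). Psmb8 and Psmb10, inducible subunits of the immunoproteasome, had the highest adapted SDs of the proteasome list at 1.18 and 0.88, and neither passed the test (limma adjusted p = 0.194 and 0.0665).

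Several families of the extracellular matrix and of signalling stood at the other end. The median adapted SD was 1.09 for 18 collagens, 1.97 for 8 small leucine-rich proteoglycans, 1.74 for 14 IGF-binding and CCN proteins, 1.94 for 15 chemokines and interleukins and 0.917 for 28 metalloproteinases and their inhibitors. The primary medians of these lists were 0.209, 0.361, 0.470, 0.569 and 0.291. Limma called 12 of the 18 collagens, 5 of the 8 proteoglycans, 8 of the 14 IGF-binding and CCN genes, 7 of the 15 chemokines and 13 of the 28 metalloproteinases more spread, and the F ratio called 6, 2, 4, 1 and 3. One metalloproteinase, Adamts6, the least spread of its list in adapted cells, was called less spread by limma (SD 0.31 and 0.07, limma adjusted p = 0.0258) but not by the F ratio. The background is 21.1% of genes for limma and 1.86% for the F ratio. Other families of this kind were near it: 4 of 22 integrins and laminins (median SD 0.592) and 4 of 20 semaphorins, plexins and Eph proteins (0.738) were called by limma and 0 by the F ratio.

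**Figure D3:**
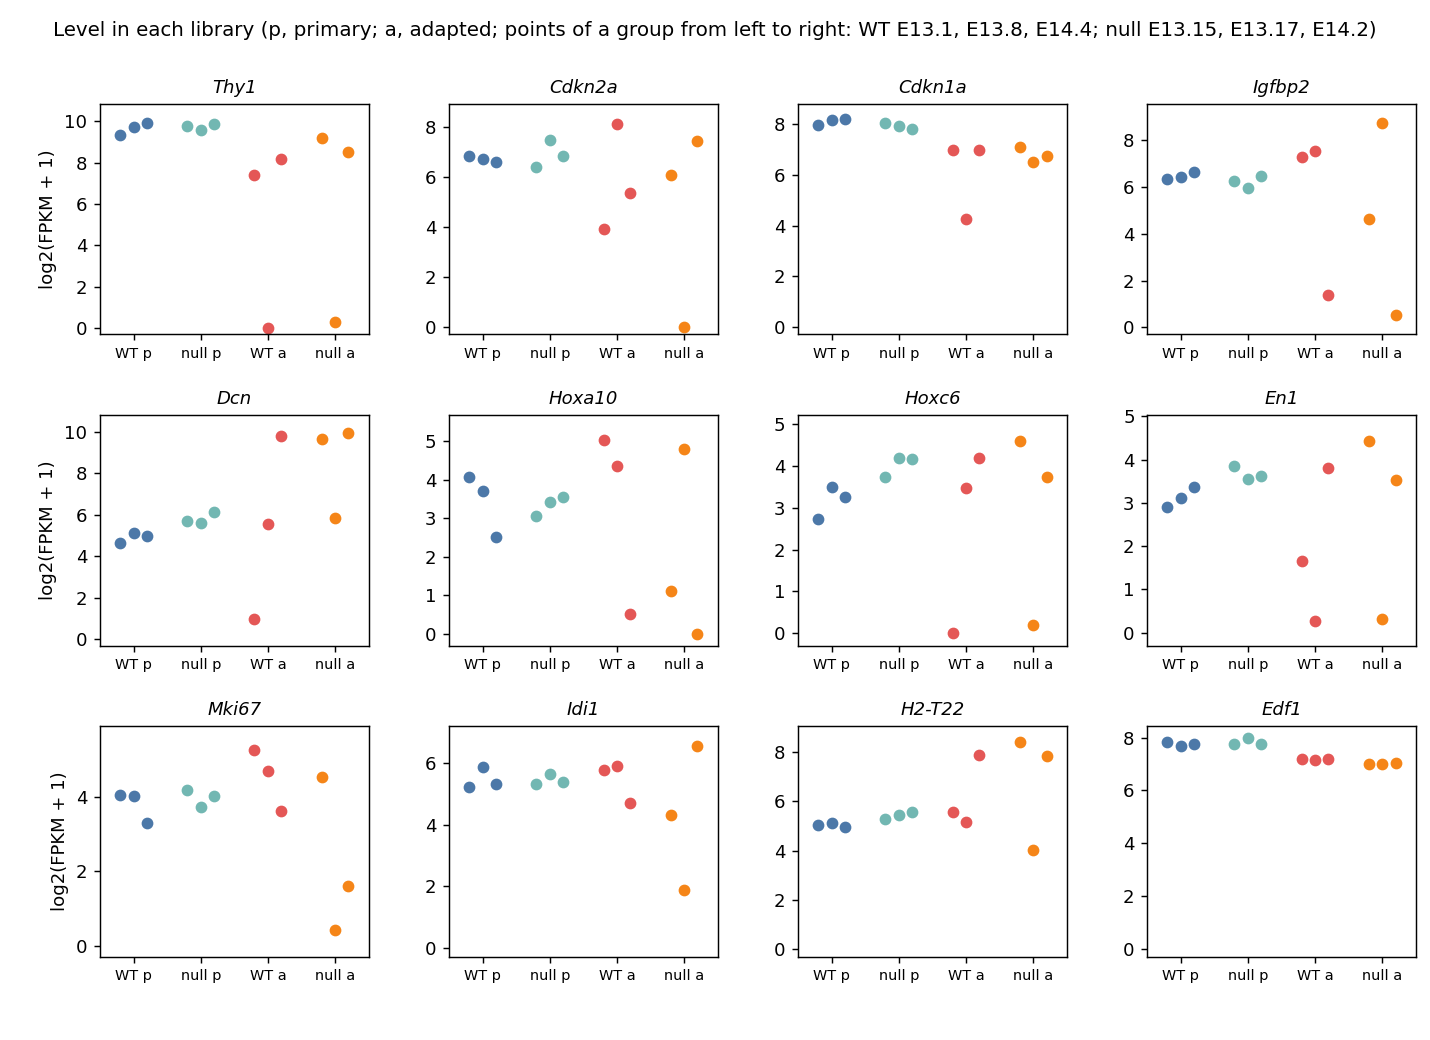
log2(FPKM + 1) of 12 genes (y axes) in the 12 libraries, grouped on the x axis as WT primary, null primary, WT adapted and null adapted, with points from left to right in the order of embryos given in the title. Primary points lie close together for Thy1 (SD 0.22) and Cdkn1a (SD 0.12) and farther apart for Hoxa10 (SD 0.53). Adapted points of Thy1 run from 0 to 584 FPKM and those of Edf1 stay between 127 and 144 FPKM.

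Col1a1, the main chain of type I collagen, was at 2858 to 3186 FPKM in the 6 primary cultures. It was at 1034, 1231 and 139 FPKM in WT adapted E13.1, E13.8 and E14.4 and at 1007, 446 and 440.0 FPKM in null adapted E13.15, E13.17 and E14.2. All 6 adapted lines were thus below all 6 primary cultures, with WT E14.4 the lowest, and the SD was 0.07 and 1.21 (limma adjusted p = 0.00504). Col3a1, of type III collagen, whose unit overlaps another annotated gene, was at 322 to 745 FPKM in primary cultures. In the adapted lines, in the same order, it was at 159, 1063 and 10.0 FPKM in WT and at 114, 532 and 48.7 FPKM in null, so that lines lay on both sides of the primary range. WT adapted E14.4 was low in collagens at large, with 1 of 18 above its group mean.

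Decorin and its relatives bind collagen fibrils. Dcn (chr10:97479500-97518329) was at 24.1 to 68.5 FPKM in primary cultures, at 0.984, 46.5 and 905 FPKM in the WT lines E13.1, E13.8 and E14.4 and at 800.0, 56.8 and 993 FPKM in the null lines E13.15, E13.17 and E14.2. Dcn was therefore far above every primary culture in 3 lines and below all of them in WT E13.1. Its SD was 0.26 in primary and 3.35 in adapted cells, with a difference in absolute deviation of 2.66 ± 0.76 (SE, limma adjusted p = 0.0118, F ratio adjusted p = 0.00243). Aspn, asporin, ranged from 25.7 to 71.5 FPKM in primary cultures and from 0.218 to 174 FPKM in adapted lines.

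Igfbp2, which binds insulin-like growth factors (chr1:72824470-72852476), was at 61.3 to 100.4 FPKM in primary cultures, at 155, 185 and 1.65 FPKM in the WT lines and at 24.3, 427 and 0.433 FPKM in the null lines, in the same order of embryos. The SD was 0.21 and 3.79 (limma adjusted p = 0.00696, F ratio adjusted p = 0.00163). Among chemokines, Cxcl5, a neutrophil attractant, was at 207, 1211 and 0.686 FPKM in the WT lines and spread over 3.64 to 102 FPKM in primary cultures already, and it did not pass (limma adjusted p = 0.111). Ccl2, which attracts monocytes, was at 114 to 294 FPKM in primary cultures and at 193, 128 and 2321 FPKM in the WT lines and 1180, 60.2 and 973 FPKM in the null lines. WT E14.4, null E13.15 and null E14.2 were thus the high lines for both Ccl2 and Dcn.

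The fibroblast markers themselves were among the divergent genes, with a median SD of 0.202 in primary and 1.20 in adapted cells, and limma called 10 of 10 (F ratio 4). Thy1, a surface glycoprotein used to identify fibroblasts (chr9:44002840-44049050), was at 643, 856 and 979 FPKM in WT primary and 769, 864 and 929.7 FPKM in null primary cultures. It was at 168, 0 and 292 FPKM in the WT adapted lines E13.1, E13.8 and E14.4 and at 584, 0.215 and 361 FPKM in the null adapted lines E13.15, E13.17 and E14.2. Thy1 RNA was thus close to nil in 1 line of each genotype and above 160 FPKM in the other 4. The difference in absolute deviation was 4.25 ± 0.78 (SE, limma adjusted p = 0.00014, F ratio adjusted p = 0.00112). A second unit at the gene gave the same order of lines. Vim, vimentin, was the least spread marker, at 2370 to 2931 FPKM in primary and 677 to 2289 FPKM in adapted cells (SD 0.08 and 0.52).

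Genes of the contractile cytoskeleton, which mark smooth muscle and myofibroblasts, had a median SD of 0.335 in primary and 0.999 in adapted cells. Limma called 7 of 18 (38.9%, against 21.1% of all genes) and the F ratio 3 (against 1.86% of all genes). Members moved together by line: 18 of 18 lay above the group mean in WT adapted E13.8 and in null adapted E13.15, and 0 of 18 did in null adapted E14.2. Actg2, smooth muscle gamma actin (chr6:83512905-83536265), was at 237 to 623 FPKM in primary cultures. It was at 4.34, 502 and 8.51 FPKM in the WT lines and at 216, 12.6 and 0.311 FPKM in the null lines, the highest adapted SD (3.63) among units with 1 symbol, their own coordinates and no 0. In the primary null group, too, 18 of 18 were above the mean in E14.2 and 0 of 18 in E13.17.

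**Figure D4:**
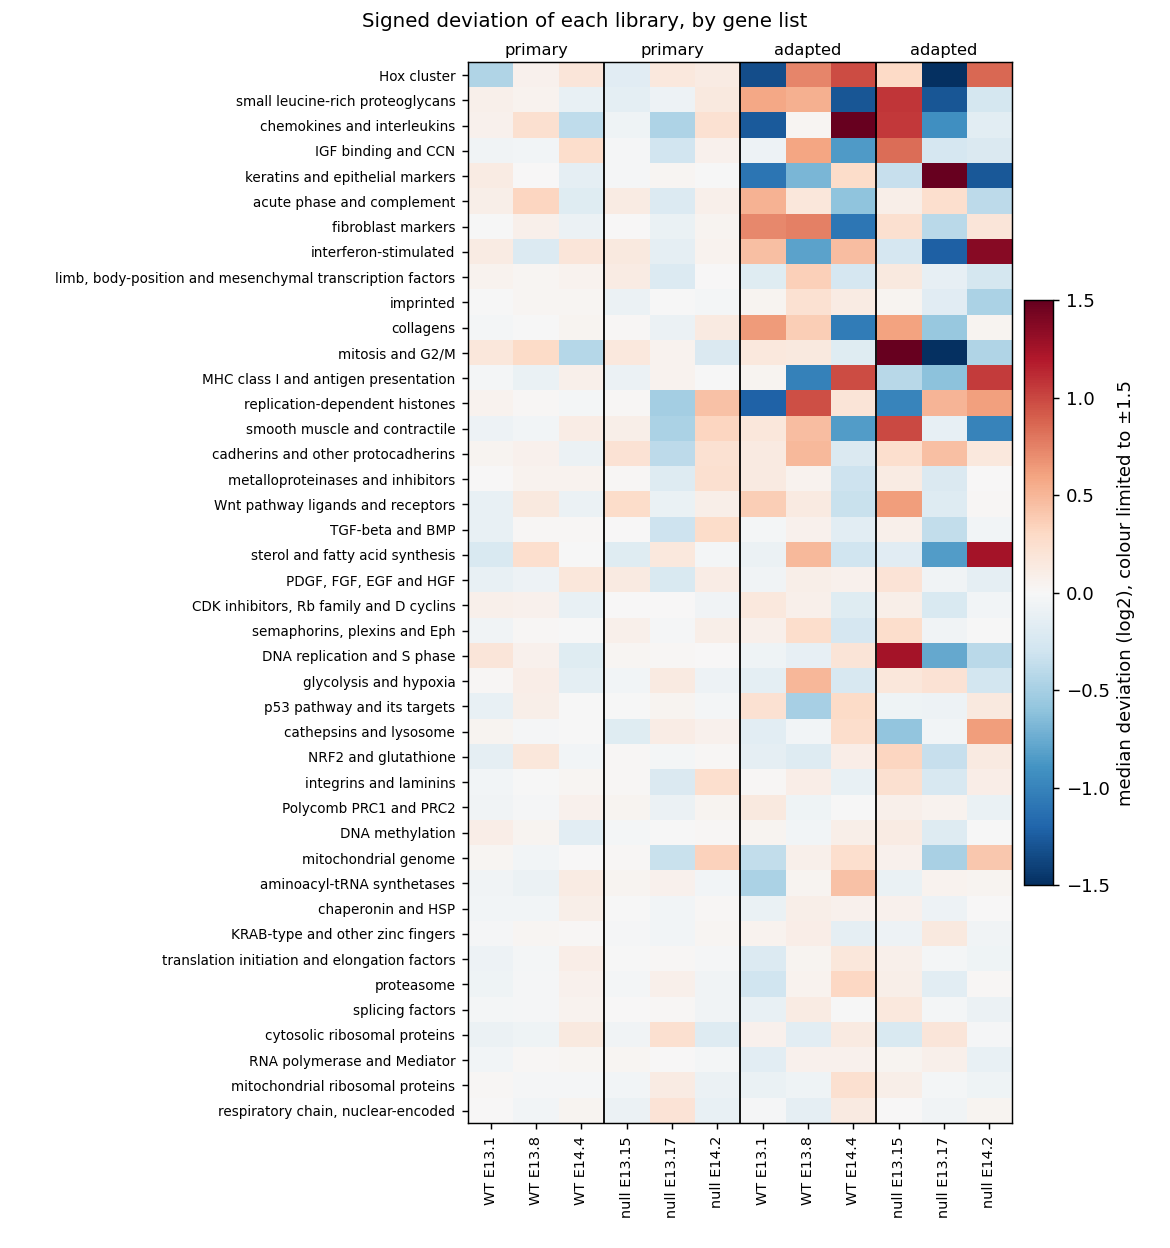
Median signed deviation of each gene list (y axis) from the group mean in each of the 12 libraries (x axis, embryo and group), as colour on a log2 scale limited to 1.5 in either direction. The columns of primary libraries are mostly pale, while single adapted lines stand out, such as null E13.15 at 2.02 and null E13.17 at -1.51 for the mitosis list.

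The positional transcription factors that passed the filter were divergent as a class. The Hox clusters had the highest median of all lists, 0.536 in primary and 2.2 in adapted cells, over 12 units. These units hold 16 of 39 listed Hox genes. An SD of at least 1 was found in 12 of 12, 7 were called by limma and 2 by the F ratio, and 11 had at least 1 value of 0. Hoxb5, Hoxb8 and Hoxd13 had a mean of at least 5 FPKM only through their highest adapted line, so their spread is partly why they were described. Hoxa10, of the posterior HoxA cluster, was at 4.75 to 15.7 FPKM in primary cultures. It was at 31.5, 19.5 and 0.433 FPKM in the WT lines E13.1, E13.8 and E14.4 and at 1.15, 26.5 and 0 FPKM in the null lines E13.15, E13.17 and E14.2. Hoxa9 and Hoxa11, its neighbours, had the same high lines, WT E13.1, WT E13.8 and null E13.17, and the same low ones.

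Members of the HoxB and HoxC clusters followed another order of lines, with WT E13.1 and null E13.17 the lowest adapted lines of their genotypes in 7 of 7 units. Hoxc6 was at 5.64 to 17.2 FPKM in primary cultures, at 0, 10.2 and 17.3 FPKM in the WT lines and at 23.0, 0.136 and 12.4 FPKM in the null lines. Hoxb9, whose unit overlaps another gene, was at 0, 16.7 and 34.4 FPKM and at 14.6, 0.331 and 24.9 FPKM. Both of the low lines were high in Hoxa10. The 2 HoxD units did not share that order: Hoxd13 was at 47.1, 0 and 0.0292 FPKM in the WT lines and at 0, 8.46 and 0 FPKM in the null lines, highest in the same lines as Hoxa10, and the unit that holds Hoxd8, Hoxd10 and Hoxd11 was highest in WT E13.1 and lowest in null E13.17. The limma adjusted p was 0.0428 for Hoxa10, 0.0206 for Hoxc6 and 0.0558 for Hoxb9, so that Hoxb9 did not pass. The F ratio called Hoxc6 and neither Hoxa10 nor Hoxb9.

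Of 19 other limb, trunk and mesenchymal factors, 9 were called (F ratio 5) and the median SD was 0.309 in primary and 1.14 in adapted cells. Pitx1, a hindlimb factor in a unit shared with a predicted gene, was at 2.43 to 6.53 FPKM in primary cultures and in adapted lines was listed at 0 except in WT E13.8 (50.5 FPKM) and null E13.17 (14.4 FPKM). Pitx1 had a mean of at least 5 FPKM only through WT E13.8, so its spread is partly why it was described. En1, engrailed, was at 6.48 to 13.5 FPKM in primary cultures, at 2.13, 0.208 and 13 FPKM in the WT lines and at 20.4, 0.238 and 10.6 FPKM in the null lines (limma adjusted p = 0.0116), and was lowest in the 2 lines in which Pitx1 was present. Twist2, a mesenchymal repressor, was at 71.0 to 210.3 FPKM in primary and 2.82 to 291 FPKM in adapted cells, with WT E13.8 and null E13.17 again the lowest of their genotypes. Its relative Twist1 was at 22.1 to 34.3 FPKM in primary and 19.3 to 29.8 FPKM in adapted cells and was among the 2 least spread of the list (SD 0.14 and 0.24, limma adjusted p = 0.332).

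Imprinted genes, expressed from 1 parental allele, had a median SD of 0.222 in primary and 1.10 in adapted cells, with 16 of 22 called (F ratio 8). The list includes Dcn. Dlk1, a paternally expressed regulator of growth and differentiation, was at 50.8 to 188 FPKM in primary cultures, at 81.0, 0.225 and 327 FPKM in the WT lines and at 163, 0.0622 and 2.53 FPKM in the null lines. Its SD was 0.64 and 4.0 (limma adjusted p = 0.00762, F ratio adjusted p = 0.0331), and WT E13.8 and null E13.17 were once more the lowest of their genotypes. The neighbouring pair Igf2, a growth factor, and H19, a noncoding RNA, was lower in every adapted line than in any primary culture: Igf2 was at 211 to 429 FPKM in primary cultures and 1.08 to 36.2 FPKM in adapted lines, and H19 at 185 to 497 FPKM and 0.207 to 121 FPKM. Null E13.15 was the highest adapted line for both. Nap1l4 (SD 0.03 and 0.24) and Sgce (0.20 and 0.22) were the least spread of the list.

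Genes that restrain division were examined for the loss of growth control. The list of CDK inhibitors, Rb family members and D cyclins had a median SD of 0.208 in primary and 0.805 in adapted cells, with 8 of 15 called (F ratio 3). Cdkn2a (chr4:89274471-89295056) was at 95.7 to 114 FPKM in WT primary and 82.2 to 176 FPKM in null primary cultures. It was at 14.2, 273 and 39.9 FPKM in the WT lines E13.1, E13.8 and E14.4 and at 66.1, 0 and 171 FPKM in the null lines E13.15, E13.17 and E14.2. Its level thus ranged from 0 in null E13.17 to above any primary culture in WT E13.8, with an SD of 0.34 and 3.04 (limma adjusted p = 0.0148, F ratio adjusted p = 0.0146).

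RNA of the genes beside Cdkn2a on chromosome 4 was present in null E13.17. The Cdkn2a value of that line can be a failed estimate. No DNA was measured, so loss of the gene was not tested. Cdkn2b, p15, was at 33.6 to 61.2 FPKM in primary cultures, at 3.77, 41.5 and 8.57 FPKM in the WT lines and at 8.15, 27.6 and 15.3 FPKM in the null lines. Mtap, an enzyme of methionine salvage, was at 37.9 to 51.9 FPKM in primary and 17.1 to 46.8 FPKM in adapted cells.

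Genes of the p53 pathway lay on both sides of the mean in the WT lines. WT adapted E13.8, the line with the highest Cdkn2a, had 4 of 24 genes of the list above its group mean (median deviation -0.50), against 15 in E13.1 and 19 in E14.4. The primary culture WT E13.1 also had 4 of 24 above, at a median deviation of -0.11. Cdkn1a, the CDK inhibitor p21, was at 225 to 294 FPKM in primary cultures, at 124, 18.1 and 127 FPKM in the WT lines and at 138, 90.1 and 107 FPKM in the null lines (SD 0.12 and 0.94, limma adjusted p = 0.00698). Ccng1, another p53 target, was within 126 to 139 FPKM in primary cultures and at 82.5, 25.2 and 159 FPKM in the WT lines and 91.2, 60.2 and 145 FPKM in the null lines (limma adjusted p = 0.00462). Mdm2, the ubiquitin ligase that p53 induces, was at 25.1 FPKM in WT E13.8 and 164 FPKM in WT E14.4. Trp53 itself stayed within 53.9 to 88.5 FPKM in adapted and 82.1 to 95.7 FPKM in primary cells (SD 0.05 and 0.18, limma adjusted p = 0.0507), and Rb1 had an SD of 0.20 and 0.22. The median SD of the list was 0.240 and 0.619, with 7 of 24 called (F ratio 2). The limma share of 29.2% was near the 21.1% of all genes, and the F ratio called 1.86% of all genes.

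Cell division genes separated the null lines from each other far more than the WT lines. The median SD of 24 genes of mitosis and G2/M was 0.400 in WT primary, 0.230 in null primary, 0.297 in WT adapted and 1.86 in null adapted cells, and the null adapted SD exceeded the WT adapted one in 24 of 24. Between states 9 of the 24 (37.5%) were called more spread by limma, against 21.1% of all genes, and 1 by the F ratio, against 1.86%. In null E13.15, 23 of 24 were above the group mean, against 1 in E13.17 and 0 in E14.2. Mki67, the proliferation marker Ki-67, was at 8.78 to 17.1 FPKM in primary cultures, at 37.1, 25.0 and 11.3 FPKM in the WT lines and at 22.3, 0.34 and 2.02 FPKM in the null lines E13.15, E13.17 and E14.2. Bub1, a spindle checkpoint kinase, was at 20.5, 17.4 and 20.8 FPKM and at 16.2, 0.236 and 2.32 FPKM.

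Replication genes repeated the pattern. Over 38 genes of DNA replication and S phase the median SD was 0.347 in WT and 1.09 in null adapted lines, with 22 of 38 called more spread between states (F ratio 4) and 37, 1 and 4 of the 38 above the group mean in null E13.15, E13.17 and E14.2. Rrm2, a subunit of ribonucleotide reductase, was at 79.6 to 148 FPKM in primary cultures, at 99.2, 74.9 and 137 FPKM in the WT lines and at 152, 4.57 and 11.3 FPKM in the null lines. Ezh2, the catalytic subunit of Polycomb complex PRC2, was at 11.7 to 14.6 FPKM in primary cultures, at 23.4, 26.6 and 23.7 FPKM in the WT lines and at 23.5, 5.79 and 6.46 FPKM in the null lines. Uhrf1, which guides maintenance DNA methylation, was at 18.0, 0.703 and 4.36 FPKM in the null lines. All of these genes were thus near or above their primary level in null E13.15 and below it in the other two null lines.

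The genotype difference in spread was tested with limma on the same deviations. In adapted cells null and WT differed for 1516 of 11854 units (12.8%; 825 with null more spread and 691 with WT more spread), and 20 of the 24 mitosis genes and 20 of the 38 replication genes were among them, each with null more spread. This test is unstable: it called 0 units when the null primary library E14.2 or E13.15 was left out, and an F ratio of the 2 variances called 11 units. In primary cells null and WT differed for 57 units (0.481%). The change of spread on adaptation differed between genotypes for 214 units (1.81%; 9 without the null primary library E13.17), among them 8 of the 24 mitosis genes, 5 of the 38 replication genes, Ezh2 (limma adjusted p = 0.0206), Uhrf1 (limma adjusted p = 0.004) and Bub1 (limma adjusted p = 0.0425). With 3 lines of each genotype, 1 of the null lines carrying a transgene, a difference between genotypes and one between single lines cannot be told apart. Growth rate was not among the values analysed here.

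Sterol and fatty acid synthesis set the null lines apart in another order. The median SD of 29 genes was 0.274 in primary and 0.866 in adapted cells, 0.510 in WT and 1.17 in null lines, and 12 of 29 were called (F ratio 1). Null E14.2 had 29 of 29 above the group mean and null E13.17 had 0 of 29. Idi1, an isomerase of the isoprenoid pathway, was at 36.4 to 57.7 FPKM in primary cultures, at 54.6, 59.4 and 24.9 FPKM in the WT lines and at 18.8, 2.66 and 94.2 FPKM in the null lines (limma adjusted p = 0.0199).

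Genes of antigen presentation and of the interferon response ran together within lines. The 12 genes of MHC class I and antigen presentation had a median SD of 0.186 in primary and 1.02 in adapted cells, with 9 called (F ratio 1), and 25 interferon-stimulated genes had 0.306 and 1.19, with 12 called (F ratio 2). In WT E13.8, 0 of the 12 and 2 of the 25 were above the group mean, in null E13.17 it was 0 and 3, and in null E14.2 it was 12 and 23. H2-T22, a nonclassical class I gene with close paralogs that may share reads, was at 30.0 to 46.5 FPKM in primary cultures, at 46.6, 34.8 and 235 FPKM in the WT lines and at 343, 15.2 and 231 FPKM in the null lines (limma adjusted p = 0.00716, F ratio adjusted p = 0.0039). Ifit3, induced by interferon, was at 1.26 to 3.97 FPKM in primary cultures and reached 30.2, 35.3 and 129 FPKM in WT E13.1, WT E14.4 and null E14.2. B2m, the light chain of class I molecules, was at 780.3 to 1151 FPKM in primary and 949.6 to 5924 FPKM in adapted cells.

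Among smaller lists, the 25 lysosomal genes had a median SD of 0.153 in primary and 0.616 in adapted cells and 12 called genes (F ratio 1), with 24 of 25 above the group mean in null E14.2 and 2 of 25 in null E13.15. Lamp1, a lysosomal membrane protein, was at 279 to 377 FPKM in primary cultures and at 271, 509 and 1430 FPKM in the null lines. The aminoacyl-tRNA synthetases, which charge tRNAs, were as tight as the median gene, yet 20 of 20 were above the mean in WT E14.4 and 1 of 20 in WT E13.1. Polycomb subunits (23 genes) had a median of 0.167 and 0.454 and the 6 genes of DNA methylation 0.150 and 0.449.

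Some genes went from present to absent between lines. Genes at 10 FPKM or more in 1 culture and at 0.5 FPKM or less in another of the same group numbered 13 in WT primary, 14 in null primary, 128 in WT adapted and 140 in null adapted cells. An exact 0 supplied the low value of 13 of the 13, 13 of the 14, 64 of the 128 and 64 of the 140. Over both adapted groups there were 217 such genes, and 63 of them were at 10 FPKM or more in all 6 primary cultures, while 3 were at 0.5 FPKM or less in all 6. The filter treats these kinds of gene unequally. A gene at 10 FPKM or more in all 6 primary cultures always has a mean of at least 5 FPKM over the 12 libraries. A gene at 0.5 FPKM or less in all 6 is described only if its adapted levels are high. The counts therefore do not compare losses with gains. The 51 genes that met the rule in both genotypes included 12 without any 0: Dlk1, Il1rn, Slc1a6, Ppbp, Gng2, Lama5, Pla2g7, Adam23, Mme, Cdsn, Mmp23 and En1.

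No single line supplied the divergence. Of 823 genes with an SD of at least 1 in WT adapted cells, the line farthest from the group mean was E14.4 for 374 (45.4%), E13.1 for 288 (35%) and E13.8 for 161 (19.6%). Of 924 such genes in null adapted cells it was E13.17 for 359 (38.9%), mostly low (223), E13.15 for 353 (38.2%), mostly high (279), and E14.2 for 212 (22.9%). The deviations of each adapted line were also set against those of its own parent culture. Over 8779 genes their correlation was 0.260 for E14.4, 0.175 for E13.1, 0.166 for E13.15, 0.143 for E13.17, -0.0173 for E13.8 and -0.0379 for E14.2. Over the 785 genes with an adapted SD of at least 1 it ran from -0.0798 for E14.2 to 0.318 for E14.4. These values describe genes of the same libraries. None is given for unmatched cultures and lines, so how much was carried over cannot be judged.

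Deviations of adapted lines were in part shared along chromosomes. The median signed deviation of the units of a chromosome was at least 0.1 in size for 40 of 120 pairs of a chromosome and an adapted library (range -0.323 to 0.263), against 1 of 120 in primary libraries (range -0.100 to 0.0619). Chromosome 7 was at 0.247 in WT E13.1 and -0.323 in WT E14.4. Chromosome 4 was at 0.263 in WT E13.8 and -0.231 in WT E14.4, and chromosome 15 was at -0.230 in null E13.15 and 0.208 in null E13.17. In windows of 40 neighbouring units, 286 per library, a median of at least 0.3 in size occurred in 0 windows of any primary library and in 13, 8 and 22 windows of WT adapted E13.1, E13.8 and E14.4 and 5, 9 and 1 of null adapted E13.15, E13.17 and E14.2. One of the largest was chr7:126847416-128547072 in WT E14.4, with a median of -0.474 and 12.5% of the units above the group mean. Another was chr4:117883621-123917269 in WT E13.8, at 0.363 with 95% above. With each library centred on the median of each of its chromosomes, the median adapted SD was 0.350 and 2136 units were called more spread.

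**Figure D5:**
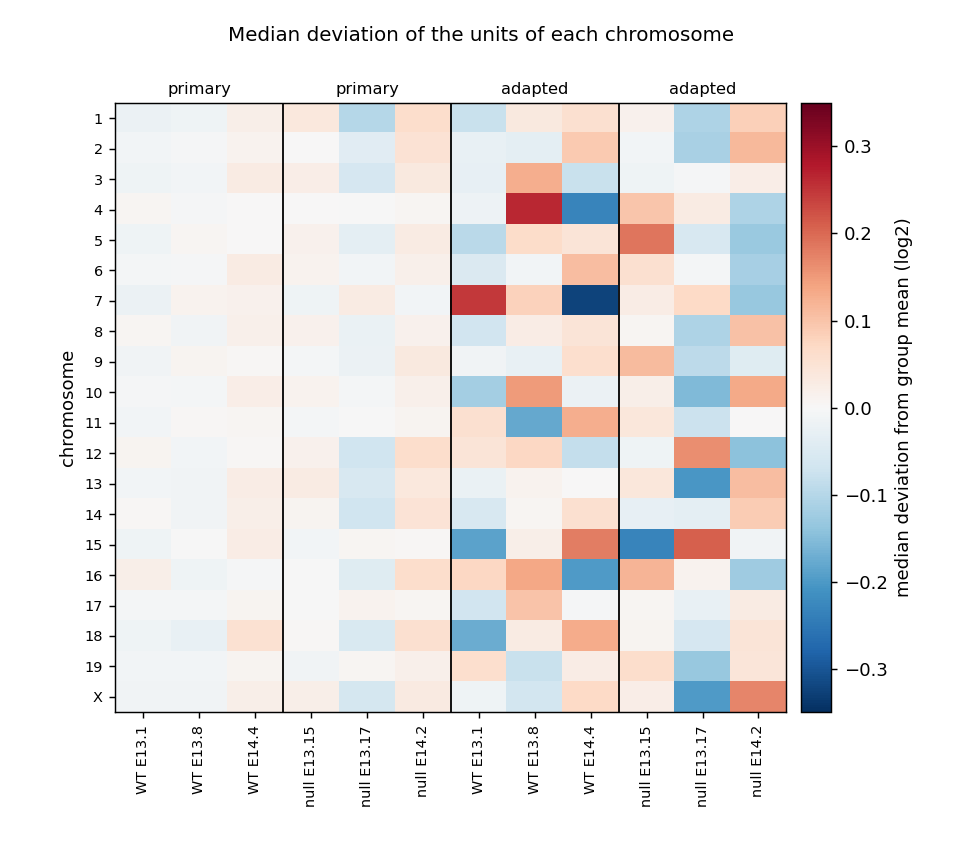
Median signed deviation from the group mean of the units of each chromosome (y axis) in each library (x axis), as colour on a log2 scale. The primary columns stay between -0.100 and 0.0619, while chromosomes 7, 4 and 15 reach values beyond 0.2 in either direction in single adapted lines.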

How the data were processed

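Gene expression was analysed from the table of FPKM per library deposited by the authors, who trimmed reads with cutadapt 1.8.3, aligned them to mouse genome GRCm38 with HISAT2 2.0.5 and estimated FPKM with the Cufflinks suite. No counts were used. Values were taken as log2(FPKM + 1), which understates changes of low genes, in units with a mean of at least 5 FPKM over 12 libraries. The 3 libraries outside the 4 groups were left out, except 1 in alternatives.

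Absolute deviations from the group mean, scaled by the square root of n/(n - 1), were fitted with limma 3.58.1 (R 4.3.3) on state and genotype with a mean-variance trend and Benjamini-Hochberg adjustment, threshold 0.05. A moderated F ratio, also with limma, compared variances. Library medians were compared by two-sided exact permutation tests computed in R, and within pairs in Python with NumPy 2.4.6. Rank correlations used SciPy 1.17.1. For gene lists, 1 unit stood for each gene. The procedures were tested on simulated data. The 12 libraries are cultures of 6 embryos, each embryo giving 1 primary culture and 1 adapted line, and no 2 libraries held identical values. An exact permutation within these pairs was added after seeing the data.

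The groups, lists and units were chosen with earlier results of these data known. The rule for named genes took, for each list, the 2 most and the 2 least spread members, then the most and least spread units with 1 symbol, their own coordinates and no 0, the smallest p-values, and fixed genes of growth control, Polycomb and fibroblast identity. Hoxa9, Hoxa10, Hoxa11, Hoxb9, Hoxc6, Hoxd13, En1, Bub1, Mki67, Ccng1, Ccl2, B2m, Igf2, H19 and the genes of the on and off comparison were named after their values were seen. Depth per library is known only relative to 1 library. RefSeq promoters were matched to 77.0% of units, under the 80% needed, so no promoter comparison was made. Alternatives covered pseudocount, expression threshold, normalization, libraries, test and leaving out each library.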

Additional observations from a re-analysis of the deposited data

Results flagged for a closer look

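The change of spread on adaptation differed between CIZ1 null and WT cells, by the interaction term of the limma fit, for 214 of 11854 units, of which 49 had a mean of at least 5 FPKM only through their highest library. Among genes named by the stated rule these were Ezh2 (interaction adjusted p = 0.0206), with a WT adapted SD of 0.10 and a null adapted SD of 1.03, Arl3, a small GTPase (adjusted p = 0.00400), at 48.7 to 79.3 FPKM in null primary and 53.9 to 55.8 FPKM in null adapted cells, Uhrf1 (adjusted p = 0.00400), with 0.10 and 1.74, and Rpl39l, a paralog of a ribosomal protein gene (adjusted p = 0.00956), listed at 0 in all 3 WT adapted lines and in null E13.17 and at 97 and 71.4 FPKM in null E13.15 and E14.2. The pseudogene Cbx3-ps5 was listed at 70181 FPKM in null primary E14.2 and at 0 in the other 11 libraries, and Gm25679 at 86.7 FPKM in WT adapted E14.4 and at 0 elsewhere. Both entered the description only through that library, so their test restates 1 value and is not given. Dixon's test for an outlying library was not applied to groups of 3.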

How the results depend on the processing

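The higher spread of adapted libraries kept its direction under every alternative. Over all libraries its exact permutation p was at most 0.00649 with libraries permuted freely and 0.0312 with the embryo as a replicate block, and within 1 genotype it was 0.1, the smallest that 3 against 3 allows. The difference of 0.140 ranged from 0.127 to 0.163 when 1 library was left out. The median adapted SD of 0.371 became 0.398 with a pseudocount of 0.1 and 0.334 over 423 units with 1 symbol, their own coordinates and no 0, and ranged from 0.335 to 0.371 with 1 library left out. The median primary SD of 0.196 became 0.232 with the second untreated transgenic library added to the null group, and ranged from 0.155, without null E13.17, to 0.199. The counts of units are far less stable. The 2565 units called more spread became 674 at a mean of at least 50 FPKM, 92 over the 423 units, 1306 with that transgenic library in place of null E13.17, 1530 with both, 0 from group medians, 232 by the F ratio, 0 in WT alone (3482 at an unadjusted p below 0.05), 0 in null alone (3099) and 795 over genes at least as high in adapted as in primary cells. Leaving out 1 library gave 1620 to 3934. The counts beyond 1.5 times the full one were 1643 and 1620 without WT primary E13.1 and E13.8, 1680 without null primary E13.15 and 3934 without WT adapted E13.8. The 96 units called less spread became 229 at a mean of at least 1 FPKM, 21 at 50 FPKM, 0 over the 423 units, 62 with the transgenic library exchanged, 0 from group medians, 42 by the F ratio, 0 in WT alone, 4 in null alone, 39 with 1 unit per gene and 16 over genes at least as high in adapted cells, and 55 to 199 with 1 library left out. The threshold of 1 FPKM gave 491 units for the interaction, 144 for genotype in primary and 2349 for genotype in adapted cells, where the F ratio gave 11. With 1 library left out these 3 counts ranged from 9 to 2165, 22 to 175 and 0 to 4003. Where 2 libraries are left in a group, their deviations are of equal size, which by construction lowers the residual spread. From group medians, 1 deviation in each group of 3 is exactly 0, which by construction raises it. For other changes the cause was not tested. Of the gene lists, 31 to 33 remained above the median of all genes with 1 library left out, and 3 of 8 did over the 423 units. The embryo as a replicate block gave 2049 and 82 units called more and less spread and changed neither count by over 1.5 times. The alternatives with 1 unit per gene, levels as high as primary, chromosome medians, the F ratio for genotype and every unit of a list, and the paired permutation of libraries, were chosen after seeing the data.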
